A study of Mus musculus with 64 samples.

Results

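Brown adipose tissue (BAT) of fat-specific *Nampt* knockout (FANKO) mice was compared with that of wild-type (WT) mice at zeitgeber time (ZT) 10, late in a 12-h light phase that starts at ZT 0, with emphasis on stress genes whose genotype effect at ZT 10 differed from the effect at the other times. The comparison held 8 of the 64 RNA sequencing libraries of the study, 4 per genotype, chosen by their labels, and it was set against the 24 BAT libraries collected at ZT 6, ZT 18, and ZT 22, with 4 per genotype at each time. All mice were 2 to 4-mo-old males of the *Nampt*TM1Jtree line, in which exon 3 of *Nampt* is floxed, crossed with Adiponectin-Cre; FANKO mice carried the Cre and WT mice were littermates without it. The adiponectin promoter is active in white as well as brown adipocytes from the time they differentiate, so the deletion was neither limited to BAT nor acute, and the other cells of the tissue kept *Nampt*. The labels number the libraries 1 to 4 in each group without naming an animal, so the p values measure the spread between these libraries.

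NAMPT makes nicotinamide mononucleotide from nicotinamide and is the main salvage route to NAD+ in adipocytes, and brown adipocytes burn fat in mitochondria that use this cofactor. Cells answer proteotoxic stress through HSF1, which raises cytosolic chaperones of the HSP70, HSP90, and small heat shock protein families and the cochaperones that move client proteins between them. Stress of the endoplasmic reticulum acts through XBP1 and ATF6, and phosphorylation of eIF2α lets ATF4 raise genes for amino acid supply. In tissues of nocturnal mice many cytosolic chaperone genes also have a daily rhythm, and body temperature rises in the dark phase.

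HSF1 binds inverted GAA repeats, and so the promoters are shown of the 3 chaperone genes called for the ZT 10 difference (*Hspb1*, *Stip1*, and *Hspa4l*) and of *Hspa1a*, an inducible HSP70 gene that was not called for it. Each sequence holds the 250 bases before the RefSeq start (GRCm38.p6), written on the strand of the gene. Capitals mark the motif GAANNTTC, which reads the same on both strands.
Hspb1, chr5:135887669-135887918, plus strand: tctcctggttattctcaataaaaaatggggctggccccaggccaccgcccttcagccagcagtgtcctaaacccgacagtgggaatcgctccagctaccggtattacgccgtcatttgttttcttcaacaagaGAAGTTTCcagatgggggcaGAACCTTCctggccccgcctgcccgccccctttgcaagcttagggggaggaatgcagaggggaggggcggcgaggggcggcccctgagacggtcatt
Hspa1a, chr17:34972157-34972406, minus strand: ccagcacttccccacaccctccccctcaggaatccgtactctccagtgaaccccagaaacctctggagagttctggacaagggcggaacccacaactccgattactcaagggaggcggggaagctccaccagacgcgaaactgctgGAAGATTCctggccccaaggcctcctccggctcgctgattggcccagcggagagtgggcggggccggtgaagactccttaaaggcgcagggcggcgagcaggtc
Stip1, chr19:7040027-7040276, minus strand: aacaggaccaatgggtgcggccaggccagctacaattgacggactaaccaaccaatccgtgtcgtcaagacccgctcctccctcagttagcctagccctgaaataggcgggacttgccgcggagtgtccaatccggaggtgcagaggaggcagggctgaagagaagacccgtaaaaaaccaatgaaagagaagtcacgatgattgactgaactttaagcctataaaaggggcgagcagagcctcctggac
Hspa4l, chr3:40745363-40745612, plus strand: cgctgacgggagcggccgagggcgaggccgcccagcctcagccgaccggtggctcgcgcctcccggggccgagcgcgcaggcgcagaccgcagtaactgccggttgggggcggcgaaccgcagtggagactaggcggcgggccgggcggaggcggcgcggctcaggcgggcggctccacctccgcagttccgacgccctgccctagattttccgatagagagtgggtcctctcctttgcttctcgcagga
*Hspb1* had 2 matches, whose first bases lay 117 and 97 bases before the start, *Hspa1a* had 1 match at 104 bases, and *Stip1* and *Hspa4l* had none. Only exact matches within these 250 bases were searched, so imperfect or more distant sites would be missed. Of all 32851 promoters of this length, 6.69% held at least 1 GAANNTTC and 0.228% held 2. The other arrangement of the repeat, TTCNNGAA, was found in 7.17%, and either form in 12.8%. Among the 51 heat shock chaperone genes with a promoter in the table, 11 (21.6%) held either form. This share counts 1 promoter per gene, whereas the shares of all promoters count every listed start of a gene. Of the 8 chaperone genes with a positive light minus dark difference (a contrast defined with the time courses), *Hspb1* and *Hsph1* held one, *Hspa4l*, *Stip1*, *Ahsa1*, and *Dnajb5* held none, and *Hsp90aa1* and *Hspa8* had no entry.

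The targeted gene was low in every FANKO library. *Nampt* was at 699, 793, 587, and 705 CPM (read counts relative to library size, scaled by the trimmed mean of M values, TMM) in the WT libraries and at 158, 150, 145, and 124 CPM in the FANKO libraries at ZT 10. The groups did not overlap, and the FANKO mean was 20.7% of the WT mean (4.82-fold lower; p = 0.0286 by an exact two-sided permutation test, which with 70 splits of 4 against 4 cannot give a smaller value). *Nampt* fell by 2.27 ± 0.14 on the log2 scale (SE, n = 4, FDR = 6.2e-20, the Benjamini-Hochberg false discovery rate of edgeR's quasi-likelihood test). *Ucp1*, the uncoupling protein that defines brown adipocytes, was present at 4694 to 7370 CPM in WT and 1017 to 1884 CPM in FANKO libraries.

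The ZT 10 libraries held 7992763 to 27792416 assigned reads each, and several features beyond the targeted gene moved with genotype. Transcripts of the mitochondrial genome took 19.9 to 34.3% of WT reads and 13.0 to 15.9% of FANKO reads, and the TMM factors were 0.644 to 0.761 in WT and 1.03 to 1.12 in FANKO. Of 12 macrophage markers, 11 rose and 1 fell in FANKO BAT, with a summed level of 133.5 to 165.9 CPM in WT and 1079 to 2343 CPM in FANKO. All 8 T cell markers rose, from 2.01 to 3.65 CPM in WT to 58.4 to 129 CPM in FANKO, and all 6 B cell markers rose, from 2.22 to 4.09 CPM to 55.9 to 353 CPM. Of 8 stromal progenitor markers 7 rose, and of 10 adipocyte markers 7 fell, with a summed level that went from 14493 to 15315 CPM to 7310 to 9923 CPM. The summed level of 12 skeletal muscle markers was 71.1, 2.11, 38.8, and 492 CPM in WT replicates 1 to 4 and 6.30 to 11.8 CPM in FANKO, and 9 of them were lower in FANKO. None of the markers of these cell types passed the threshold for a difference between ZT 10 and the mean of the other times, but the muscle markers had a median difference of -4.62 on the log2 scale, and 3 of the 12 passed against ZT 22, where their summed level was 2.22 to 17.4 CPM in WT and 7.78 to 440.5 CPM in FANKO. In whole tissue, fewer cells of a type and less RNA per cell cannot be told apart, and the part of cell composition in the results that follow was not tested.

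At ZT 10, 9258 of 20249 genes differed between genotypes at an FDR below 0.01, which is 45.7% of the genes tested. Of these, 4719 were higher in FANKO and 4539 were lower. The named genes with the largest rises are known from immune cells or the interferon response. Which cells carried their transcripts here was not tested. The immunoglobulin light chain gene *Igkc* was at 0.467, 0.211, 0.248, and 0.141 CPM in WT and at 78.0, 729, 178, and 139 CPM in FANKO, and the heavy chain gene *Igha* was at 0 to 0.467 CPM in WT and 102 to 188 CPM in FANKO. *Slfn4*, an interferon-induced gene of myeloid cells, had 3 reads in all WT libraries together and 70.4 to 234 CPM in FANKO, and *Apol9a* had 2 reads against 21.8 to 34.3 CPM. Among the largest decreases were *Car14*, a membrane carbonic anhydrase (log2 -5.01 ± 0.39), *Mmd2* (-4.81 ± 0.64), *Fgf14*, an intracellular fibroblast growth factor homologue (-4.18 ± 0.30), and *Vat1l* (-3.92 ± 0.33). Every one of these genes was separated between the genotypes in all 8 libraries, as were 52.4% of all genes tested.

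The share of genes called higher depended on the scaling. With library size alone in place of TMM, 9242 genes were higher and 1356 lower, and the median log2 difference of all genes moved from 0.02 to 0.598, so the changes given here are relative to the bulk of genes.

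**Figure D1:**
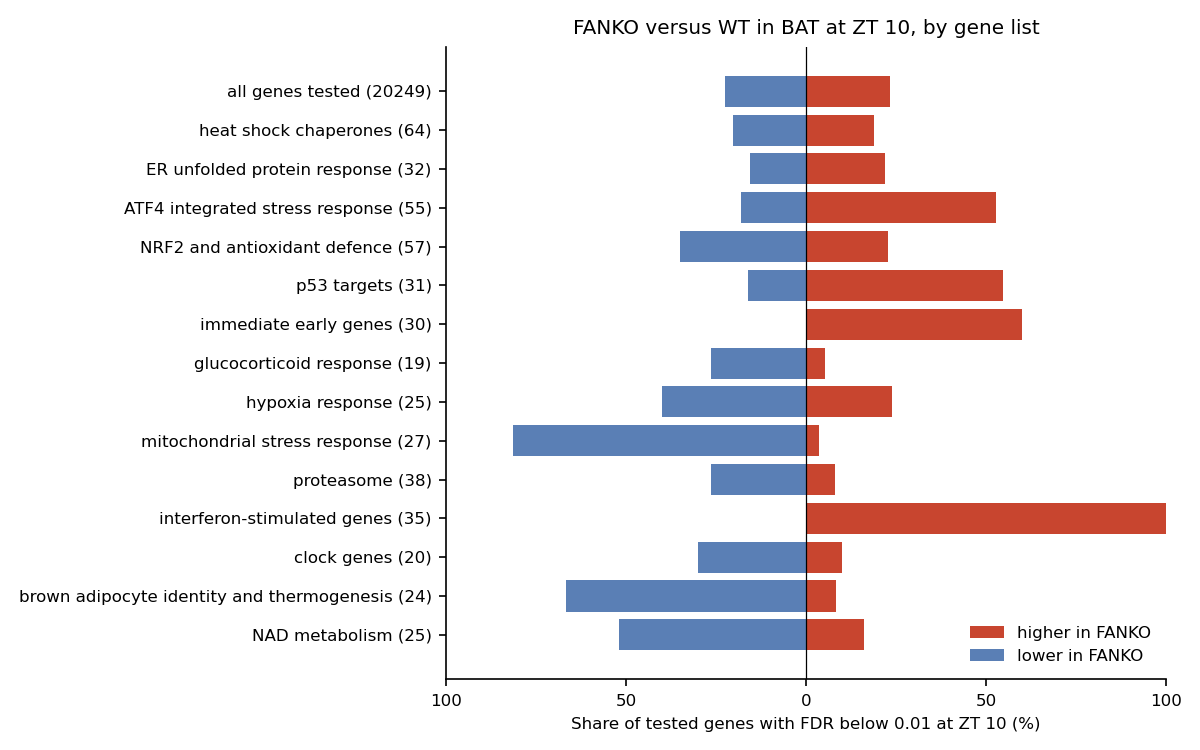
Share of tested genes (horizontal axis, percent) with an FDR below 0.01 at ZT 10, for all genes and for 14 gene lists with the number of genes tested in brackets; red bars to the right are higher in FANKO and blue bars to the left lower. Interferon-stimulated genes were all higher, immediate early genes changed upward only, 22 of 27 mitochondrial stress genes were lower, and the heat shock list was divided between 12 higher and 13 lower.

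Across 10 stress lists with 368 tested genes, 102 were higher and 99 lower in FANKO at ZT 10 (54.6%). Of all genes tested, 45.7% were called, with 23.3% higher and 22.4% lower. The median log2 difference was 0.001 for the stress genes against 0.02 for all genes. The lists differed in direction, as the plot of called shares by list shows. Immediate early genes had 18 higher and 0 lower of 30 (median log2 difference 1.01) and p53 targets 17 and 5 of 31 (0.505). The ATF4 integrated stress response list, which holds *Atf4* itself and eIF2α kinases beside ATF4 targets, had 29 and 10 of 55 (0.365). Interferon-stimulated genes were higher for 35 of 35 (median 4.60). Genes of the mitochondrial stress response were higher for 1 and lower for 22 of 27 (median -0.80), and NRF2 and antioxidant genes for 13 and 20 of 57 (-0.09). Heat shock chaperones were close to balance at 12 and 13 of 64, with 39.1% called and a median of 0.014. With library size alone the heat shock list held 44 higher and 1 lower, the proteasome list 23 and 0, and the NRF2 list 28 and 8, so the directions of these lists depend on the scaling.

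Most genotype differences at ZT 10 were also seen at the other times. Of the 9258 genes, 6333 (68.4%) were called in the same direction at all 4 times and 8876 (95.9%) had the same sign at all 4. The genotype effect was past the threshold for 9768 genes at ZT 6 (48.2%), 8905 at ZT 18 (44%), and 9178 at ZT 22 (45.3%). A further 561 genes (6.06%) were called at ZT 10 alone, but 0 of these passed the test of the difference itself.

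The genotype effect at ZT 10 differed from the mean effect at ZT 6, ZT 18, and ZT 22 for 37 genes, or 0.183% of those tested. For 30 genes the ZT 10 effect was more positive (0.148%) and for 7 more negative (0.0346%), and 1948 genes had an unadjusted p below 0.05. Against single times, the effect at ZT 10 differed from that at ZT 18 for 157 genes (0.775%, with 0.553% positive) and from that at ZT 22 for 122 (0.602%). Against ZT 6, edgeR called 0 genes, with 1174 at an unadjusted p below 0.05, while DESeq2 called 4, which were *Dnah11*, *Cry1*, *Asb1*, and *Tspyl2*, named after their values were seen. Single libraries moved these counts: the 37 genes became 19 without WT replicate 1 and 23 without FANKO replicate 4, the 157 became 103 and 93 without WT replicates 1 and 4, and the 122 became 79, 76, 78, and 72 without WT replicates 1 and 4 and FANKO replicates 3 and 4. The 37 became 14 in a fit of the BAT libraries alone and 9 when the summed skeletal muscle markers were added to it. A contrast added after these values were seen set the mean effect of both light-phase times, ZT 6 and ZT 10, against the mean effect of both dark-phase times, ZT 18 and ZT 22; this light minus dark difference was past the threshold for 620 genes (3.06%), with 366 positive and 254 negative. With library size alone the count was 350, and 291 with the summed skeletal muscle markers in a fit of the BAT libraries alone. This contrast shares all its samples with the ZT 10 difference and is given beside it, not as a second test of it. Of the 37 genes, 34 were also called for the light minus dark difference. Against ZT 6 alone, 17 of the 37 had an unadjusted p below 0.05 in edgeR's test.

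The largest positive ZT 10 differences were those of *Arntl* and *E2f2*. *Arntl* (BMAL1, the activator of the core clock) was at 3.03, 2.22, 1.65, and 1.13 CPM in WT at ZT 10. The FANKO libraries there held 10.04, 11.0, 11.1, and 7.90 CPM, a log2 difference of 2.24 ± 0.31. *Arntl* was also called higher in FANKO at ZT 6, and its ZT 10 effect did not pass against ZT 6 alone. At ZT 18 and ZT 22 its differences were -1.005 ± 0.23 and -0.96 ± 0.23. All 4 FANKO libraries lay above all 4 WT libraries at ZT 10, and the difference from the other times was 2.40 ± 0.34 (FDR = 2.4e-05); an antisense gene overlaps *Arntl*. *E2f2*, a cell cycle transcription factor, had a difference of 2.31 ± 0.34 and *Tshr*, the thyrotropin receptor, of 1.87 ± 0.23. *Dtx4*, a ubiquitin ligase (1.69 ± 0.28), and *Fgf1*, a fibroblast growth factor of adipose tissue (1.49 ± 0.26), followed. *Dapk1*, a kinase of cell death signaling, was at 10.7, 12.4, 17.5, and 13.0 CPM in WT and 46.7, 43.8, 45.5, and 46.9 CPM in FANKO at ZT 10, and its difference from the other times was 1.27 ± 0.15. The FANKO values of *Dapk1* stayed near this level, with means of 46.3 CPM at ZT 18 and 57.1 CPM at ZT 22. The WT means there were 45.0 and 45.2 CPM. Like that of every gene in edgeR's test, the ZT 10 effect of *Dapk1* did not pass against ZT 6 alone. On the negative side, *Mthfd1l* (-1.81 ± 0.29) was followed by *Slc22a15*, a member of the organic cation transporter family (-0.81 ± 0.17), the spliceosomal cyclophilin *Ppil1* (-0.81 ± 0.16), *Ccar1* (-0.54 ± 0.10), *Bfar* (-0.54 ± 0.10), and the insulin signaling kinase *Akt1* (-0.51 ± 0.09). *Map3k20* (ZAKα), the kinase that senses stalled ribosomes, was in none of the stress lists and had a difference of 0.52 ± 0.10, with WT at 64.5 to 70.8 CPM and FANKO at 89.7 to 113 CPM at ZT 10.

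**Figure D2:**
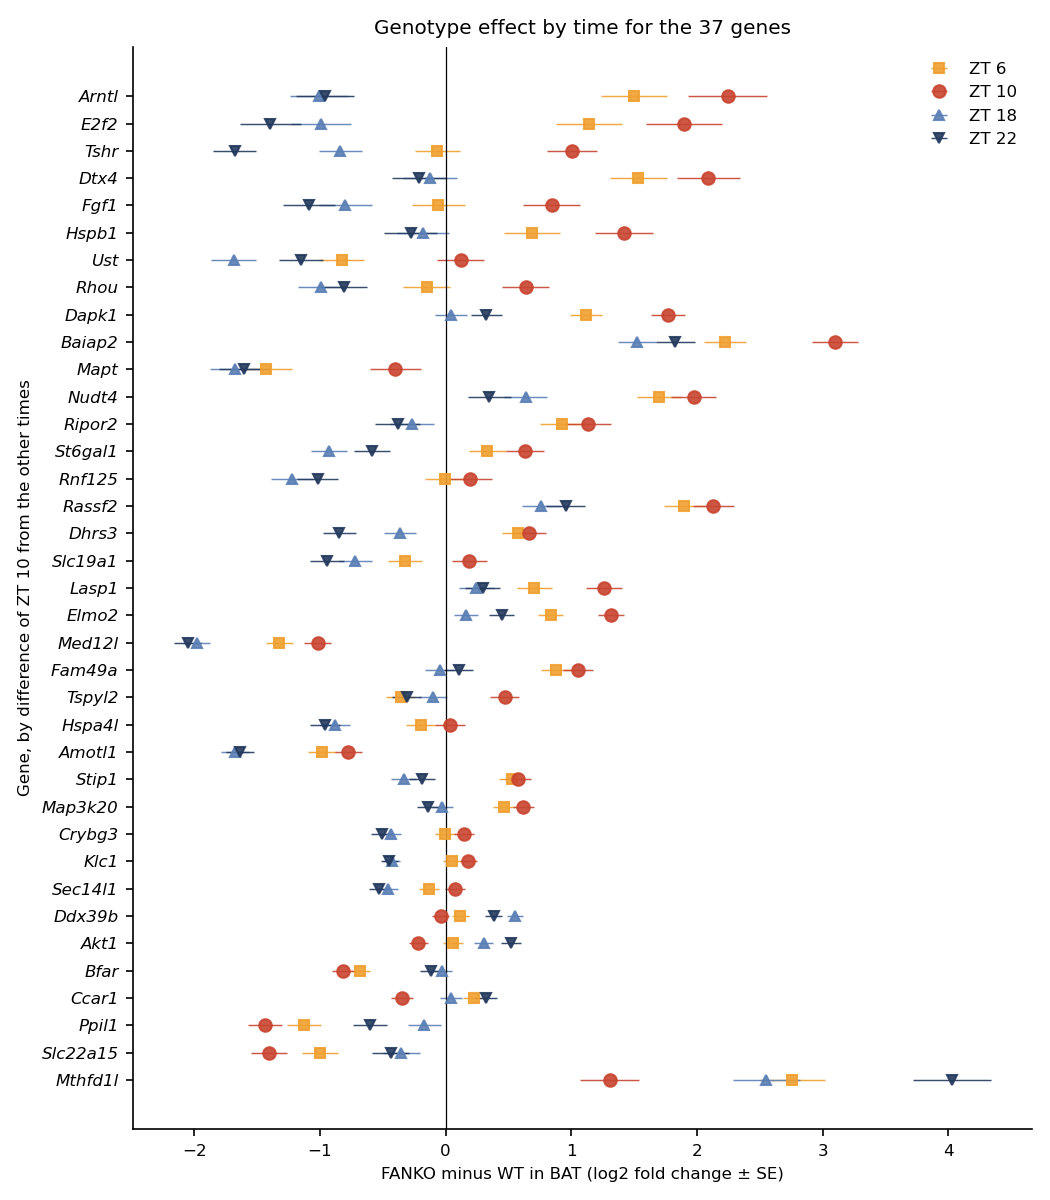
Log2 difference between FANKO and WT BAT (horizontal axis, ± SE, 4 libraries per genotype and time) at ZT 6, 10, 18, and 22 for the 37 genes with an FDR below 0.01 for the ZT 10 difference, ordered by its size. ZT 10 (red circles) lies at the outer end for each gene, a position that the choice of genes favors, and for *Stip1* ZT 6 lies beside it at 0.53 against 0.57.

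Of the 37 genes, *Arntl*, *Dapk1*, *E2f2*, *Elmo2*, *Mthfd1l*, and *Tshr* were called in all 18 alternative analyses. The others named above lost their call in some: *Slc22a15* and *Ppil1* in most that left out a single library, *Ccar1* without WT replicates 1 or 2 or FANKO replicates 1 or 4, *Map3k20* without WT replicate 1 or FANKO replicates 1 or 4, and *Bfar* without FANKO replicates 3 or 4. *Dtx4*, *Fgf1*, and *Akt1* kept theirs when any 1 library was left out.

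Of the 368 stress genes, 4 passed the test of the ZT 10 difference: the chaperone genes *Hspb1*, *Stip1*, and *Hspa4l*, with more positive effects at ZT 10, and the mitochondrial one-carbon enzyme *Mthfd1l*, with a less positive one. None of the 4 passed against ZT 6 alone in edgeR's test. Beside the background of 0.148% of genes called positive, 3 of 64 heat shock chaperone genes were, while the median difference of the list was 0.05 against 0.023 for all genes. In the light minus dark contrast, 8 of the 64 were positive and 1 negative, against 1.81% and 1.25% of all genes. The list members and this contrast were chosen with earlier results of these data known, so these shares are a description and not a test.

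*Hspb1* encodes HSP27, a small heat shock protein that holds unfolded proteins in a refoldable state. At ZT 10 it was at 12.2, 12.7, 11.4, and 12.7 CPM in WT and 31.6, 30.8, 39.4, and 29.2 CPM in FANKO. Each FANKO library was higher than each WT library, and the log2 difference was 1.42 ± 0.23 (FDR = 6.2e-07). It was 0.69 ± 0.22 at ZT 6, and at ZT 18 and ZT 22 it did not pass the threshold (-0.18 ± 0.21 and -0.28 ± 0.21). The WT mean was 72.8 ± 27.1 CPM (SD, n = 4) at ZT 18 and 62.5 ± 4.97 CPM at ZT 22, and the FANKO mean 63.8 ± 26.9 CPM and 51.5 ± 18.2 CPM. In WT BAT *Hspb1* was thus lower at ZT 10 than in the dark phase by 2.46 ± 0.22 on the log2 scale, and in FANKO BAT by 0.81 ± 0.19. The difference of the ZT 10 effect from the other times was 1.34 ± 0.26 (FDR = 0.0032), a call lost without any 1 WT library or FANKO replicate 3.

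*Stip1* encodes HOP, the cochaperone that hands clients from HSP70 to HSP90. It was at 41.8, 42.0, 45.7, and 42.8 CPM in WT and 64.7, 59.3, 71.6, and 61.0 CPM in FANKO at ZT 10, again without overlap (log2 difference 0.57 ± 0.10, FDR = 3.2e-06). The effect was nearly as large at ZT 6 (0.53 ± 0.10) and had the opposite sign at ZT 18 (-0.33 ± 0.10, FDR = 0.0036). At ZT 22 it was -0.19 ± 0.10 and did not pass. WT BAT rose from 43.1 ± 1.79 CPM at ZT 10 to 122 ± 8.81 CPM at ZT 18, and FANKO BAT was at 64.2 ± 5.47 CPM and 97.0 ± 12.3 CPM. The difference from the other times was 0.57 ± 0.12 (FDR = 0.0056), a call kept only without WT replicate 3 or FANKO replicate 2 among the fits that left out 1 library.

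*Hspa4l*, an HSP110 family member that exchanges nucleotide on HSP70, was called for the difference although no genotype effect was called at ZT 10 itself. The WT libraries held 69.3, 71.5, 78.8, and 82.7 CPM and the FANKO libraries 77.9, 69.1, 81.5, and 81.2 CPM. The ranges overlapped and the log2 difference was 0.04 ± 0.12 (FDR = 0.82). At ZT 6 no genotype effect on *Hspa4l* was called either. In the dark phase *Hspa4l* was lower in FANKO, at 128 ± 15.4 CPM against 236 ± 5.20 CPM at ZT 18 and 120 ± 20.3 CPM against 233 ± 36.6 CPM at ZT 22. The log2 differences there were -0.88 ± 0.12 and -0.96 ± 0.12, and the difference of ZT 10 from the other times was 0.72 ± 0.14 (FDR = 0.0026), a call lost without WT replicates 1 or 2 or FANKO replicates 3 or 4.

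These calls were close to the threshold. *Hspb1* was called in 8 of 18 alternative analyses, with differences of 1.24 to 1.40 and FDR values up to 0.0699, *Stip1* in 7 (0.52 to 0.61, up to 0.122), and *Hspa4l* in 10 (0.68 to 0.77, up to 0.0699). No chaperone gene was called with library size alone, with the BAT libraries alone, with the muscle markers in the fit, or without WT replicate 1, WT replicate 2, or FANKO replicate 3.

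In the light minus dark contrast the 8 positive chaperone genes were 3 of 11 HSP70 and HSP110 genes, 1 of 2 HSP90 genes, 1 of 6 small heat shock protein genes, 1 of 8 J-domain genes, and 2 of 18 cochaperone genes. The difference was 1.28 ± 0.22 (FDR = 5.6e-05) for *Hspb1*, 0.81 ± 0.10 (FDR = 1.1e-07) for *Stip1*, and 0.84 ± 0.12 (FDR = 1.6e-06) for *Hspa4l*. The inducible HSP90 gene *Hsp90aa1* had 0.71 ± 0.14, the constitutive HSP70 gene *Hspa8* 1.01 ± 0.16, the HSP110 gene *Hsph1* 0.87 ± 0.20, the HSP90 activator *Ahsa1* 0.46 ± 0.09, and the J-domain gene *Dnajb5* 0.68 ± 0.15. *Mrpl18*, a mitochondrial ribosomal protein that is also made in a cytosolic form under heat stress, was the 1 negative member (-0.50 ± 0.11). *Hspa4l*, *Hspa8*, *Hspb1*, and *Stip1* were called in 18 of 18 alternatives for this contrast. The count of 8 became 5 with library size alone and 11 with DESeq2, and the genes behind it were not the same in every alternative.

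*Hsp90aa1*, *Hsph1*, and *Hspa8* were also lower in WT BAT at ZT 10 than in the dark. *Hsp90aa1* was at 97.6, 95.7, 105, and 97.6 CPM in WT and 129, 132, 167, and 169 CPM in FANKO at ZT 10, with a log2 difference of 0.59 ± 0.14 (FDR = 0.00027). It did not pass for the ZT 10 difference (FDR = 0.013). At ZT 22 the order was turned, with 270 ± 50.3 CPM in WT and 199 ± 19.5 CPM in FANKO (log2 -0.44 ± 0.14, FDR = 0.0053). *Hsph1* was at 16.5 to 24.2 CPM in WT and 33.2 to 39.3 CPM in FANKO at ZT 10, and at 129 ± 23.4 and 121 ± 22.8 CPM at ZT 18. *Hspa8*, the most abundant of them, was at 370, 367, 195, and 249 CPM in WT and 443, 345, 387, and 334 CPM in FANKO at ZT 10, so the groups overlapped (log2 0.35 ± 0.16, FDR = 0.05), and small nucleolar RNA genes overlap it on the same strand. At ZT 18 *Hspa8* reached 1120.4 ± 37.3 CPM in WT and 922 ± 114 CPM in FANKO.

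**Figure D3:**
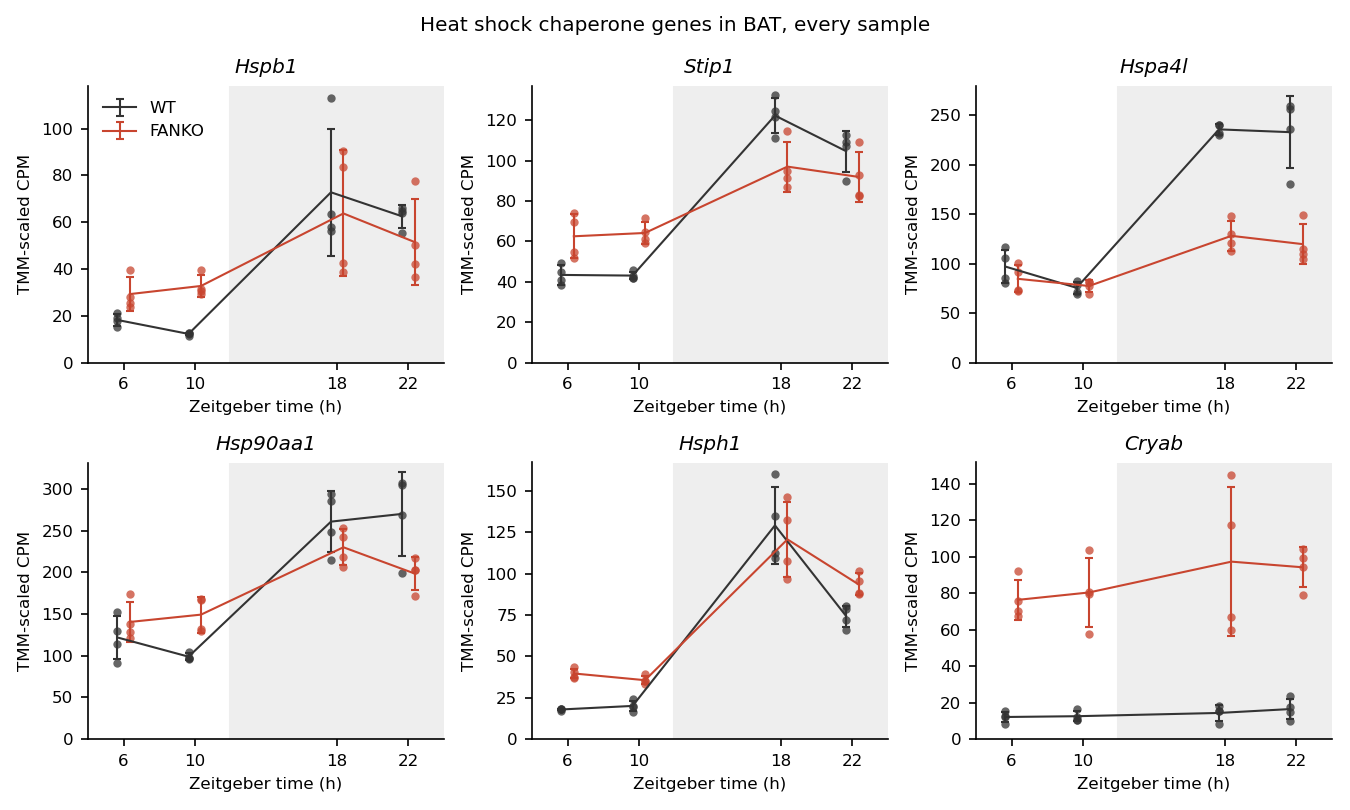
TMM-scaled CPM (vertical axes) of 6 heat shock chaperone genes in all 32 BAT libraries by zeitgeber time (h); points are libraries, lines join group means, bars are SD (n = 4), and grey marks the dark phase. WT values (black) of the first 5 genes are low at ZT 6 and ZT 10 and high at ZT 18 and ZT 22, with smaller steps in FANKO (red), while *Cryab* is high in FANKO at every time.

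Counted over the list, 23 of the 64 chaperone genes were lower and 4 higher at ZT 10 than in the dark phase in WT BAT, against 5.25% and 3.89% of all genes (9.15% in either direction). In FANKO BAT 16 were lower and 1 higher, against 0.672% and 0.721% (1.39% in either direction). Both contrasts were added after the time courses had been seen, and their samples are part of the light minus dark contrast. The FANKO count over all genes, 282, was 96 without FANKO replicate 4 and 169 to 190 without each of the other FANKO libraries; the count within the list was not recomputed for these. By role, 6 of 11 HSP70 and HSP110 genes were lower at ZT 10 than in the dark in WT and 5 in FANKO, and both HSP90 genes were lower in each genotype. None of the 8 chaperonin subunits passed in either genotype.

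**Figure D4:**
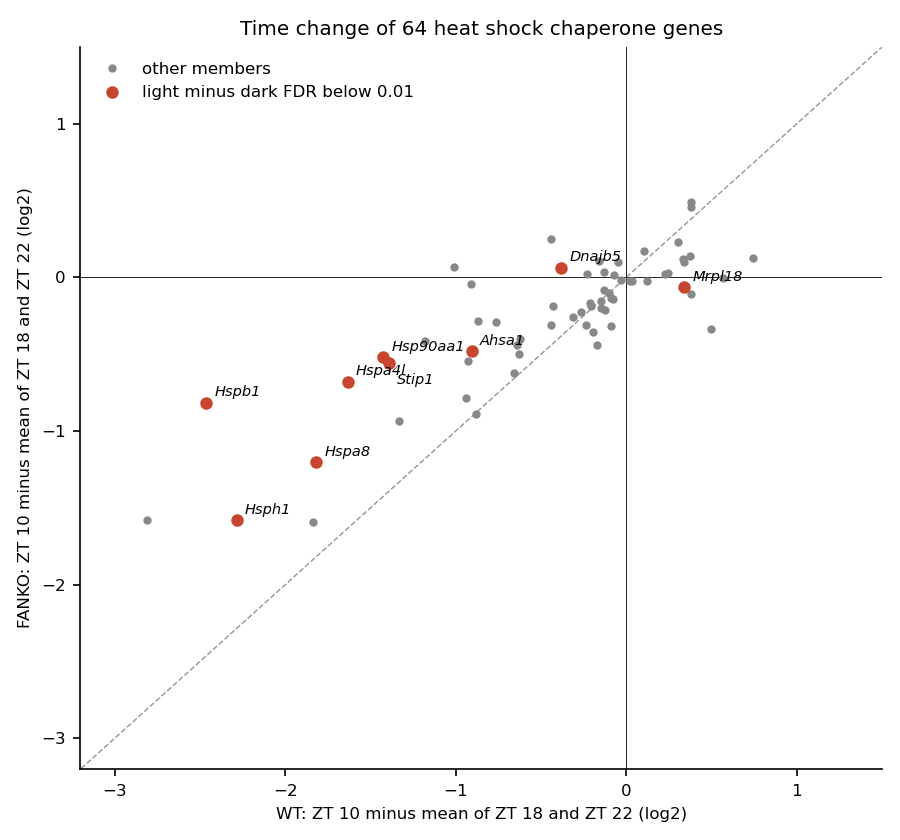
Log2 difference between ZT 10 and the mean of ZT 18 and ZT 22 in WT (horizontal axis) and FANKO (vertical axis) for the 64 heat shock chaperone genes tested; the dashed line marks equal differences and red points passed the light minus dark test. *Hspb1* lies at -2.46 in WT and -0.81 in FANKO, and *Hsph1* at -2.29 and -1.58; since both axes and the red points share samples, the plot is a description.

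Other chaperone genes were higher in FANKO at all 4 times. *Cryab*, the small heat shock protein αB-crystallin, was at 10.7, 10.6, 12.2, and 16.7 CPM in WT and 57.7, 80.8, 104, and 79.6 CPM in FANKO at ZT 10. Its log2 difference was 2.69 ± 0.27 at ZT 10 and 2.53 to 2.76 at the other times. *Hspb8*, which works with BAG3 in the disposal of aggregates, was at 55.1 to 72.2 CPM in WT and 173 to 212 CPM in FANKO (1.64 ± 0.18), and *Bag3* itself was at 13.6 to 15.7 and 23.0 to 32.9 CPM (0.95 ± 0.14). The autophagy receptor gene *Sqstm1* (1.21 ± 0.16) and *Hmox1* (2.98 ± 0.31), which HSF1 can also raise, were higher as well. The inducible HSP70 gene *Hspa1a* was low, at 0.0778, 0.317, 0.0827, and 0.141 CPM in WT and 2.32, 0.557, 1.31, and 0.600 CPM in FANKO (3.06 ± 0.61), and its near-identical neighbor *Hspa1b* overlapped between the groups (1.92 ± 0.46); reads shared by the pair make both values uncertain.

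Several HSP90 and HSP70 cochaperones were lower. *St13*, which binds HSP70, fell by 0.56 ± 0.10 at ZT 10, the HSP90 immunophilin *Fkbp4* by 0.46 ± 0.11, the J-domain gene *Dnajb4* by 0.60 ± 0.12, and the chaperonin subunit *Tcp1* by 0.50 ± 0.09. Among 18 cochaperones 2 were higher and 8 lower (55.6% called). Of all genes 45.7% were called, with 22.4% lower. With library size alone 1 gene of the whole list of 64 was lower. The regulator *Hsf1* was not called (0.04 ± 0.12, FDR = 0.84). *Hsf2* was lower (-0.32 ± 0.10, FDR = 0.0066), a call lost without any 1 of WT replicates 1, 2, and 4 and FANKO replicates 3 and 4, with a sign that turned to 0.26 under library size alone. *Hsf4* had WT values of 2.25, 2.22, 2.90, and 2.68 CPM and FANKO values of 3.86, 3.34, 3.59, and 3.05 CPM without passing at ZT 10 (FDR = 0.031).

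Genes of the unfolded protein response in the endoplasmic reticulum were called in both directions at ZT 10. Of 32 tested, 7 were higher and 5 lower (37.5%, against 45.7% of all genes), and 0 passed for the ZT 10 difference. With library size alone 25 were higher and 0 lower. *Sdf2l1*, a cochaperone of BiP, was at 0.467, 1.58, 0.331, and 0.847 CPM in WT and 4.67, 7.13, 4.98, and 3.65 CPM in FANKO (log2 2.70 ± 0.33), with no overlap and similar differences of 2.16 to 2.35 at the other times. The degradation factor *Derl3* rose by 2.13 ± 0.37 and the oxidase *Ero1lb* by 0.82 ± 0.14, while *Herpud1* fell by 0.73 ± 0.18. BiP itself, *Hspa5*, was not called at ZT 10 (-0.13 ± 0.15), and its light minus dark difference was -0.66 ± 0.15, as was that of *Hsp90b1* (GRP94, -0.53 ± 0.10). These signs are opposite to those of the 8 cytosolic chaperone genes. *Hsp90b1* was at 211 to 255 CPM in WT and 217 to 272 CPM in FANKO at ZT 10, and at 209 against 327 CPM at ZT 18.

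In the ATF4 list, *Mthfd1l* was the 1 gene called for the ZT 10 difference. It encodes the mitochondrial enzyme that releases formate from formyltetrahydrofolate. At ZT 10 it was at 2.80, 2.32, 2.90, and 2.12 CPM in WT and 6.28, 7.36, 7.08, and 4.90 CPM in FANKO. The groups were apart, with a log2 difference of 1.31 ± 0.24, but the differences at ZT 6, ZT 18, and ZT 22 were 2.76 ± 0.26, 2.55 ± 0.26, and 4.03 ± 0.31. WT BAT was highest at ZT 10 (2.53 ± 0.373 CPM) and between 0.417 and 1.05 CPM at the other times, and FANKO BAT was between 4.56 and 7.12 CPM throughout. The difference from the other times was -1.81 ± 0.29 (FDR = 0.00023). The folate carrier gene *Slc19a1*, in no stress list, was also among the 37, with 18.9 to 21.3 CPM in WT and 20.8 to 26.8 CPM in FANKO at ZT 10 and a difference of 0.85 ± 0.16, a call lost without WT replicate 1 or FANKO replicate 1.

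No other gene of the ATF4 list was called for the ZT 10 difference. Of the 8 amino acid transporters, 6 were higher in FANKO at ZT 10 and 0 lower, against 23.3% and 22.4% of all genes. Among the higher ones were *Slc7a5* (3.98 ± 0.44) and *Slc7a11*, which had 3 reads in all WT libraries together and 11.9 to 16.1 CPM in FANKO. The stress factor *Atf3* was at 1.48, 1.80, 0.414, and 1.41 CPM in WT and 33.7, 43.9, 45.8, and 38.6 CPM in FANKO (5.02 ± 0.35), and *Ddit3* (CHOP) at 15.6 to 20.02 and 42.7 to 66.9 CPM (1.71 ± 0.22). Both were apart in all libraries, and at the other times the log2 difference was 4.28 to 4.66 for *Atf3* and 1.16 to 1.80 for *Ddit3*. The serine and proline enzymes *Psat1* (2.00 ± 0.19) and *Aldh18a1* (2.49 ± 0.22) and the folate enzyme *Mthfd2* (2.19 ± 0.24) rose, and the hormone gene *Fgf21* rose by 3.84 ± 0.66. *Asns*, the asparagine synthetase and a textbook ATF4 target, had the opposite sign at 115 to 136 CPM in WT and 34.6 to 46.4 CPM in FANKO (-1.60 ± 0.14). *Atf4* itself was not called (0.30 ± 0.18, FDR = 0.17). The cysteinyl-tRNA synthetase gene *Cars* had a positive light minus dark difference (0.58 ± 0.10), and *Sesn2*, a leucine sensor, a negative one (-0.82 ± 0.19).

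*Maff*, a small MAF protein that pairs with NRF2, was the NRF2-list gene with the smallest p for the ZT 10 difference. It was at 4.12, 3.28, 3.23, and 3.39 CPM in WT and 54.7, 47.8, 64.1, and 59.0 CPM in FANKO at ZT 10 (log2 4.00 ± 0.32). WT means rose to 19.1 ± 5.47 CPM at ZT 18 and 27.9 ± 12.5 CPM at ZT 22, where the log2 difference was 1.91 ± 0.26 and 1.74 ± 0.26. The ZT 10 difference of 1.47 ± 0.35 did not pass (FDR = 0.029), and neither did the difference from ZT 6 alone. The light minus dark difference was 2.14 ± 0.28 (FDR = 3.4e-07). *Nqo1*, the classical NRF2 target, was higher at ZT 10 (2.11 ± 0.26) and at the other times (2.08 to 2.74). Enzymes that remove superoxide and peroxide were lower, with *Cat* at -0.96 ± 0.12, *Sod1* at -0.74 ± 0.14, and the secreted *Gpx3* at -3.18 ± 0.34. *Nfe2l2*, which encodes NRF2, was at 90.1 to 104 CPM in WT and 89.0 to 108 CPM in FANKO.

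**Figure D5:**
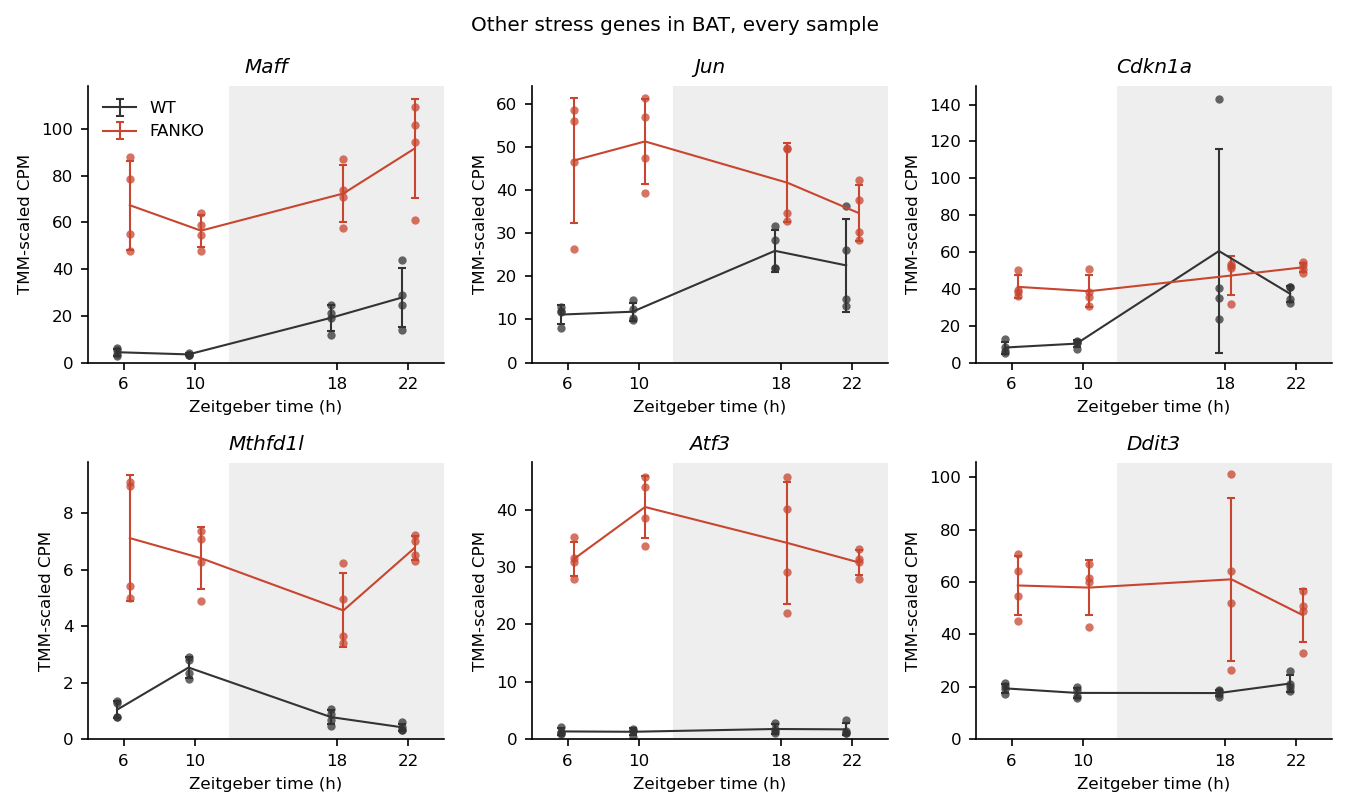
TMM-scaled CPM (vertical axes) of 6 genes from other stress lists in all 32 BAT libraries by zeitgeber time (h); points are libraries, lines join group means, bars are SD (n = 4), and grey marks the dark phase. *Maff*, *Jun*, and *Cdkn1a* are low in WT at ZT 6 and ZT 10, *Mthfd1l* is highest in WT at ZT 10, and *Atf3* and *Ddit3* are higher in FANKO at every time.

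Several genes of the p53 and immediate early lists also had low WT levels in the light. *Cdkn1a* (p21, which arrests the cell cycle) was at 11.7, 11.4, 10.6, and 7.48 CPM in WT and 38.02, 35.7, 50.7, and 30.4 CPM in FANKO at ZT 10 (log2 1.89 ± 0.34). At ZT 18 and ZT 22 the difference did not pass (-0.34 ± 0.31 and 0.48 ± 0.31), and the WT values at ZT 18 were spread widely (60.5 ± 55.5 CPM). The ZT 10 effect of *Cdkn1a* did not pass against ZT 6 alone, and its light minus dark difference was 2.05 ± 0.33 (FDR = 1.6e-05). The other p53-list genes with a positive light minus dark difference were *Gadd45b* (1.88 ± 0.32), *Cdkn2b* (1.32 ± 0.26), *Ier5* (1.05 ± 0.23), and the death receptor gene *Tnfrsf10b* (0.71 ± 0.17). *Sesn2* and *Ei24* were negative, the latter at -0.28 ± 0.07 (FDR = 0.0099), a call lost without any 1 library other than WT replicate 1. *Pmaip1* (NOXA) was higher at every time, with 0.282 to 0.579 CPM in WT and 6.05 to 9.53 CPM in FANKO at ZT 10. *Jun* was at 12.4, 14.5, 10.3, and 9.88 CPM in WT and 39.4, 47.5, 56.9, and 61.2 CPM in FANKO at ZT 10 (2.11 ± 0.24), against log2 differences of 0.69 ± 0.22 at ZT 18 and 0.64 ± 0.23 at ZT 22. It did not pass for the ZT 10 difference (FDR = 0.07) or against ZT 6 alone, and had a light minus dark difference of 1.43 ± 0.23. *Fosl2* had 0.91 ± 0.19. *Fos* was at 0.156 to 0.565 CPM in WT and 9.97 to 16.8 CPM in FANKO at ZT 10 (5.48 ± 0.53), and its difference at the other times was 3.93 to 5.01. Macrophage and T cell markers rose in the same FANKO libraries, and which cells carried these transcripts was not tested.

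Of 19 glucocorticoid-responsive genes, 1 was higher and 5 lower at ZT 10, but 5 and 2 with library size alone; the share called, 31.6%, was below the 45.7% of all genes. The metallothionein gene *Mt2* was at 14.7, 12.5, 28.9, and 32.5 CPM in WT and 4.21, 2.90, 4.81, and 3.50 CPM in FANKO at ZT 10 (-2.499 ± 0.37). Its WT means fell to 3.90 ± 2.498 CPM at ZT 18 and 1.91 ± 1.30 CPM at ZT 22, and the light minus dark difference was -2.87 ± 0.40. *Mt1* had -1.17 ± 0.22. The receptor gene *Nr3c1* was lower at ZT 10 (-0.73 ± 0.08), with 263 to 307 CPM in WT and 160 to 176 CPM in FANKO. In the hypoxia list, 6 of 25 genes were higher and 10 lower, a balance that became 12 and 4 with library size alone. *P4ha1*, a prolyl hydroxylase of collagen that HIF1 raises, was at 17.6 to 23.9 CPM in WT and 39.7 to 53.2 CPM in FANKO (1.31 ± 0.16) and had a light minus dark difference of 0.73 ± 0.16. The mitophagy receptor gene *Bnip3* was lower throughout (-2.29 ± 0.20 at ZT 10).

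Of 8 mitochondrial matrix chaperone genes, 7 were lower in FANKO at ZT 10 and all 8 at each of the other times. Of all genes, 22.4% were lower at ZT 10 and 23.9, 22.5, and 22.7% at ZT 6, ZT 18, and ZT 22. *Hspd1* (HSP60) was at 472, 491, 500, and 525 CPM in WT and 183, 169, 197, and 220 CPM in FANKO at ZT 10 (-1.37 ± 0.12), and its partner *Hspe1*, which is transcribed from a shared promoter region, at 113 to 129 and 40.4 to 46.4 CPM (-1.47 ± 0.14). *Hspa9* (mortalin) fell by 0.95 ± 0.13 and the unfoldase gene *Clpx* by 0.74 ± 0.13. *Atf5*, the factor that raises mitochondrial chaperones under import stress, was the 1 higher gene of this list (0.98 ± 0.21). None of the 27 genes passed for the ZT 10 or the light minus dark difference. The lower share of mitochondrial transcripts and of adipocyte markers in FANKO libraries moved with this list.

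Proteasome genes were divided by type. All 3 immunoproteasome subunits were higher, with *Psmb8* at 13.5, 13.4, 14.5, and 19.5 CPM in WT and 95.5, 106, 111, and 85.1 CPM in FANKO (2.72 ± 0.21). Of 14 subunits of the 20S core 8 were lower and 0 higher, for example *Psmb3* (-0.65 ± 0.13), and of 17 subunits of the 19S cap 1 was lower. Of all genes 23.3% were higher and 22.4% lower. No proteasome gene was lower with library size alone. All 35 interferon-stimulated genes were higher, with *Ifit1* at 6.72 ± 0.51 and *Isg15* at 6.30 ± 0.51 on the log2 scale at ZT 10. *Iigp1*, an interferon-inducible GTPase, had a smaller effect at ZT 10 (3.08 ± 0.36) than at the other times (4.63 to 4.89), but WT replicate 4 was at 75.5 CPM against 17.0 to 18.5 CPM in the other WT libraries and the difference did not pass (FDR = 0.031). *Irf9* and *Parp9* had negative light minus dark differences of -0.75 ± 0.17 and -0.78 ± 0.15, and both overlap another gene. The immune cell markers rose with these genes, and their part was not tested.

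Of 20 clock genes, 2 were higher and 6 lower at ZT 10 (40.0% against 45.7% of all genes; 10 and 4 with library size alone). In WT BAT 9 were higher and 8 lower at ZT 10 than in the dark, against 3.89% and 5.25% of all genes. In FANKO BAT 8 were higher and 2 lower, against 0.721% and 0.672%, and the difference between these counts was not tested. *Dbp*, a clock output factor, was at 46.3 to 66.7 CPM in WT and 28.1 to 33.4 CPM in FANKO at ZT 10 (-0.84 ± 0.22), and its light minus dark difference was -1.60 ± 0.26. *Cry1*, a clock repressor, was not called at ZT 10 (0.14 ± 0.14) but was higher at ZT 6 (1.28 ± 0.15) and lower at ZT 22 (-0.90 ± 0.14). Of 24 brown adipocyte genes 16 were lower and 2 higher, and *Ucp1* fell by 2.05 ± 0.41. *Ppargc1a*, the coactivator of mitochondrial and thermogenic genes, was at 63.5, 87.8, 94.5, and 60.7 CPM in WT and 59.1, 96.1, 151, and 180 CPM in FANKO at ZT 10, with overlapping groups (0.66 ± 0.27, FDR = 0.032), and its ZT 10 difference of 1.23 ± 0.31 did not pass (FDR = 0.044). In the NAD list, 13 of 25 genes were lower and 4 higher (6 and 10 with library size alone). *Bst1*, a surface enzyme that cleaves NAD+, was at 0.106 to 0.331 CPM in WT and 3.19 to 3.85 CPM in FANKO.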

How the data were processed

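BAT of male FANKO and WT mice was profiled by stranded total RNA sequencing after ribosomal RNA depletion, with 38-base paired-end reads. The authors aligned reads with STAR 2.5.3a to GRCm38.p5 and assigned them to genes of GENCODE version 15 with featureCounts 1.5.3, and the deposited table holds raw counts without normalization. Strand and multimapping settings of the counting are not given in the sources used here, so values of near-identical genes (*Hspa1a* and *Hspa1b*) and of overlapping or antisense genes are uncertain. Among the genes named here, *Bfar*, *Hspa8*, *Ahsa1*, *Tcp1*, *Hsp90b1*, *Ddit3*, *Irf9*, *Ddx39b*, and *Mafg* share exon sequence with a gene on the same strand, and *Arntl*, *Hspa1a*, *Car14*, *Fgf14*, *Ppil1*, *Ccar1*, *Mrpl18*, *Cryab*, *Sqstm1*, *Cars*, *Jun*, *Cdkn1a*, *Ei24*, *Mt2*, *Bnip3*, *Hspd1*, *Hspe1*, *Atf5*, *Psmb8*, *Parp9*, *Dbp*, *Bst1*, *Adrb3*, *Crybg3*, *Dnah11*, *Fam49a*, *Irf1*, *Klc1*, *Med12l*, *Slc27a2*, and *St6gal1* with one on the opposite strand. All 52636 identifiers named a gene, and 52489 were paired with a symbol through GENCODE release M21. Promoter sequences came from a RefSeq table and were matched by symbol.

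All 64 libraries were fitted together in edgeR 4.0.16 (R 4.3.3, limma 3.58.1) with 1 mean for each of 16 groups of depot, genotype, and time, TMM scaling, and the quasi-likelihood test. The expression filter (minimum count 10, minimum total 15) left 20249 genes. FDR values were adjusted over all of them, with a threshold of 0.01. CPM values are TMM-scaled, and log2 differences carry the SE of the fit. Per-library counting error at 7992763 reads or more is small beside the spread between libraries except in genes with a few reads, and where WT held 1 to 3 reads no fold is given. *Nampt* was also tested by an exact permutation test. On simulated counts with 4 libraries per group, 52% of 1.5-fold and 78% of 2-fold changes at ZT 10 were called, and 43% and 70% for the difference between times, with 2 and 0 false calls among 19416 unchanged genes. Only 100 genes of each size, drawn above a minimum level, differed between genotypes in the simulation. These rates may not hold for the real libraries, where 45.7% of genes were called at ZT 10. Alternatives were other size factors, library size alone, other filters, limma-voom, DESeq2 1.42.0, the BAT or ZT 10 libraries alone, a block for the replicate number, the summed muscle markers as a covariate, removal of mitochondrial genome genes, and leaving out each library.

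The members of the lists, the light minus dark contrast, and the contrasts of ZT 10 with the dark phase were chosen with earlier results of these data known. Genes are named by a rule: *Nampt*; the 6 largest changes in each direction at ZT 10 among non-overlapping genes whose mean log2 CPM reached 1; the 6 largest differences between times in each direction; in each list every member past the threshold for that difference, otherwise the 3 members with the smallest p for it and the largest rise and fall at ZT 10; and the regulators of the lists. That gave 94 genes. A further 20 genes with values per library, and the other list members named as examples or as past a threshold, were added after their values had been seen.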

Additional observations from a re-analysis of the deposited data

Results flagged for a closer look

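In 22 of 298 sets of 4 libraries at ZT 10, 1 library stood apart from the other 3 by Dixon's criterion, which chance gives for about 1 in 20 sets. In WT BAT, replicate 3 was apart for *Vat1l* (79.8 CPM), *Pmaip1* (0.579 CPM), and *Atf4* (56.9 CPM, the lowest), replicate 2 for *Gdf15* (0.106 CPM) and *Npas2* (0.528 CPM), and replicate 1 for *Egr3* (0.0778 CPM). WT replicate 4 was apart for *Iigp1* (75.5 CPM), *Asns* (136 CPM), the summed skeletal muscle markers (492 CPM), and the summed epididymis markers (0.141 CPM). In FANKO BAT, replicate 2 was apart for *Igkc* (729 CPM), the summed B cell markers (353 CPM), *St6gal1* (38.2 CPM), *Slc27a2* (37.6 CPM, the lowest), and the summed endothelial markers (437 CPM, the lowest). FANKO replicate 3 was apart for *Mafg* (39.5 CPM) and *Sgk1* (32.1 CPM, the lowest), replicate 4 for *Irf1* (60.7 CPM, the lowest) and *Ppara* (163 CPM), and replicate 1 for *Bst1* (3.19 CPM, the lowest), *Slc19a1* (26.8 CPM), and *Baiap2* (43.5 CPM).

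The genotype effect differed between times by edgeR's test of the difference for 37 genes (ZT 10 against the mean of the other times), 157 genes (against ZT 18), 122 genes (against ZT 22), and 620 genes (light minus dark). The 37 log2 differences were negative for *Mthfd1l* (-1.81), *Slc22a15* (-0.81), *Ppil1* (-0.81), *Ccar1* (-0.54), *Bfar* (-0.54), *Akt1* (-0.51), and *Ddx39b* (-0.39). They were positive but smaller than for *Elmo2* in *Sec14l1* (0.45), *Klc1* (0.46), *Crybg3* (0.46), *Map3k20* (0.52), *Stip1* (0.57), *Amotl1* (0.66), *Hspa4l* (0.72), *Tspyl2* (0.72), *Fam49a* (0.74), and *Med12l* (0.77). Somewhat larger were *Elmo2* (0.83), *Lasp1* (0.84), *Slc19a1* (0.85), *Dhrs3* (0.88), *Rassf2* (0.93), *Rnf125* (0.94), *St6gal1* (1.02), *Ripor2* (1.04), *Nudt4* (1.08), *Mapt* (1.17), and *Baiap2* (1.24). The largest were *Dapk1* (1.27), *Rhou* (1.29), *Ust* (1.34), *Hspb1* (1.34), *Fgf1* (1.49), *Dtx4* (1.69), *Tshr* (1.87), *E2f2* (2.31), and *Arntl* (2.40).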

How the results depend on the processing

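The count of genes that differed at ZT 10 stayed within 1.5 times of 9258 in every alternative, but with library size alone 9242 genes were higher and 1356 lower (87.2% higher against 51%). Of these 10598 calls, 6152 were among the 9258, and 6075 of the shared genes had the same direction. The 37 genes of the ZT 10 difference were more fragile. They became 19 with library size alone (18 positive and 1 negative), 93 with DESeq2 (63 and 30, with all 37 among them), 14 with the BAT libraries alone (11 and 3, with 12 shared), 9 with the muscle covariate (6 and 3), and 115 at an FDR of 0.05 (82 and 33). Without the filter on low counts 4 were negative. Leaving out 1 library gave 19 to 38 genes (15 to 29 positive and 3 to 9 negative). The difference from ZT 6 had 4 genes with DESeq2 and 0 to 3 without 1 library. The difference from ZT 18 had 296 with DESeq2, 74 with the BAT libraries alone, and 93 to 142 without 1 library, and that from ZT 22 had 201, 37, and 72 to 108. The light minus dark count of 620 was 350 with library size alone, 434 with the BAT libraries alone, 291 with the muscle covariate, and 820 with DESeq2. The *Nampt* ratio was 3.23 with library size alone. The causes of these shifts were not tested. With library size alone the sign at ZT 10 turned for *Ccar1* (0.24), *Akt1* (0.36), *Calr* (0.53), *Ier3* (0.031), *Grpel2* (0.33), *Clock* (0.51), *Adrb3* (0.14), *Nmnat3* (0.34), *Nadsyn1* (0.063), and *Hsf2* (0.26). Without 1 library *Hspa4l* ranged from -0.003 to 0.086, *Hsf1* from -0.041 to 0.104, and *Nfe2l2* from -0.032 to 0.067, none of them called.

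The libraries were treated as unpaired. Deviations from the group means at ZT 10 correlated at 0.0742, -0.00079, 0.0263, and 0.0284 between same-numbered WT and FANKO libraries. WT replicates 1, 3, and 4 correlated best with the FANKO library of the same number, and WT replicate 2 with FANKO replicate 1. The labels do not say whether a number marks a litter, day, or batch, and these small correlations cannot decide it. With the replicate block in a fit of the BAT libraries, the ZT 10 difference had 17 genes (12 positive, with 14 of all shared), the difference from ZT 18 had 88, and that from ZT 22 had 54.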
